A study of Caenorhabditis elegans with 12 samples.

Results

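The genes described here are the cytosolic ribosomal protein genes of Caenorhabditis elegans, taken as every row of both count tables whose symbol begins with rpl, rps, rla or rpa followed by a hyphen and a number. The rule found 83 genes, all of them in both tables, out of 46711 entries in the table of the U13A strains and 46722 in that of the U18A strains. By symbol, 45 were rpl genes (large subunit), 31 were rps genes (small subunit), 3 were rla genes (the acidic stalk of the large subunit) and 4 were rpa genes. The rpa symbols went against the label, because rpa-1, rpa-2 and rpa-4 name subunits or relatives of replication protein A, which binds single-stranded DNA, and the rpa-3 symbol matched no gene of the annotation used here. The 79 rpl, rps and rla genes are therefore called the ribosomal genes below, and the rpa genes are given beside them.

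A ribosome holds a single copy of most of its proteins, and its small and large subunits are assembled together with ribosomal RNA, so their messenger RNAs are made in large amounts wherever cells grow. In growing larvae these messages are among the most abundant in the animal, and their translation in animals is known to respond to nutrients through TOR signalling. In C. elegans most ribosomal proteins come from a single gene, and a few symbols carry a suffix that marks a pair of related genes.

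The study examined base pairing outside the seed of let-7a, a microRNA that times the passage from larva to adult. RNA was taken from whole animals at mid L4, grown at 20 °C and harvested 45 h after feeding, as aliquots of worms collected for ribosome profiling. The U13A mutant was strain VT3878, genotype lin-41(tn1541ma480);let-7(ma432), labelled as excluding effects downstream of lin-41. It was compared with the U13A control, strain DG3913, lin-41(tn1541), so both strains of that table carry the tn1541 allele. By these labels the U13A mutant also carries ma480 at lin-41, which its control does not. The effects of ma480 and let-7(ma432) therefore cannot be told apart in that contrast. The U18A mutant was strain VT3797, maIs105;let-7(ma435), and its U18A control was strain VT1367, maIs105, so both strains of that table carry maIs105. Neither U18A genotype names a lin-41 allele. Each of the 4 groups had 3 libraries, labelled A, B and C. The labels do not say that the letters stand for separate cultures, so every p-value measures only the spread between these libraries. The let-7 substitutions themselves could not be read from counts per gene.

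Library totals ran between 16659340 and 21414080 reads for the U13A strains and between 6107652 and 9607239 for the U18A strains. The 3 entries most abundant in the U13A table took 65.6% to 76.8% of the counts in its libraries. The same 3 entries took 0.527% to 1.01% in the U18A libraries, so levels were not compared between tables. Control C of the U13A table stood apart, with 8.85% of its counts in protein-coding genes against 16.6% to 18.8% in the other 5 libraries of that table. The fold changes of the U13A contrast and the counts of called members are given below with and without it, and levels in CPM are given for every library.

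In the U13A mutant nearly all ribosomal genes lay slightly above the control, and in the U18A mutant most lay slightly below it, while almost none passed the test singly. Enough counts for testing were found for 82 members, which are the 79 ribosomal genes and 3 rpa genes. With all libraries, 79 of the 82 members had a log2 fold change above 0 in the U13A contrast, and without control C 77 of 82 did. Of the 79 ribosomal genes alone, 77 and 76 were above 0 in these fits. Over all genes tested, 48.6% and 50.1% were above 0 in these fits. In the U18A contrast 18 of 82 members were above 0 and 64 were below, where 51% of all genes tested were above 0. Of the 79 ribosomal genes, 16 were above and 63 below. The shifts were small. The median log2 fold change of the 82 members was 0.32 in the U13A contrast, 0.14 without control C and -0.07 in the U18A contrast. Over all genes tested the medians were -0.01, 0.00 and 0.01. The 79 ribosomal genes alone had medians of 0.32, 0.15 and -0.07. Between libraries of a group, the log2 CPM of the median ribosomal gene had a pooled SD of 0.30 in the U13A table, control C included. In the U18A table this SD was 0.07. The shifts were thus about as large as this spread, except that no such SD was computed without control C. Genes of a library moved together, so members counted above or below 0 are not independent observations.

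The summed level showed the same in each library. In CPM, which are counts relative to library sizes scaled by the trimmed mean of M-values (TMM), the 79 ribosomal genes summed to 14077, 14780 and 13942 CPM in the U13A mutants A, B and C, against 12669, 12967 and 9034 CPM in the U13A controls A, B and C. As a share of protein-coding counts, which needs no scaling factor, they made up 9.09%, 9.02% and 8.59% in the U13A mutants, against 8.03%, 8.41% and 5.88% in the controls. Every U13A mutant library lay above every control library on both measures, with control C far below the other controls. The groups overlapped on the CPM of the median ribosomal gene. It was 116, 114 and 99.7 in mutants A, B and C, against 90.2, 102 and 59.9 in the controls. Shares of all counts overlapped too, at 1.70%, 1.55% and 1.42% in the mutants against 1.39%, 1.58% and 0.521% in the controls. In bulk RNA, fewer cells of a type and less RNA per cell cannot be told apart.

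In the U18A table the summed levels were 49312, 44619 and 40870 CPM in mutants A, B and C, against 47267, 47138 and 48324 CPM in controls A, B and C. The shares of protein-coding counts were 8.30%, 7.68% and 7.51% in the mutants, against 7.87%, 7.96% and 8.15% in the controls. Here the groups overlapped, because mutant A was the highest of the 6 libraries and mutants B and C the lowest. The ribosomal genes moved together within a library: 72 of 79 were lower in U13A control C than in both other controls, and 69 of 79 were higher in U18A mutant A than in both other mutants.

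**Figure D1:**
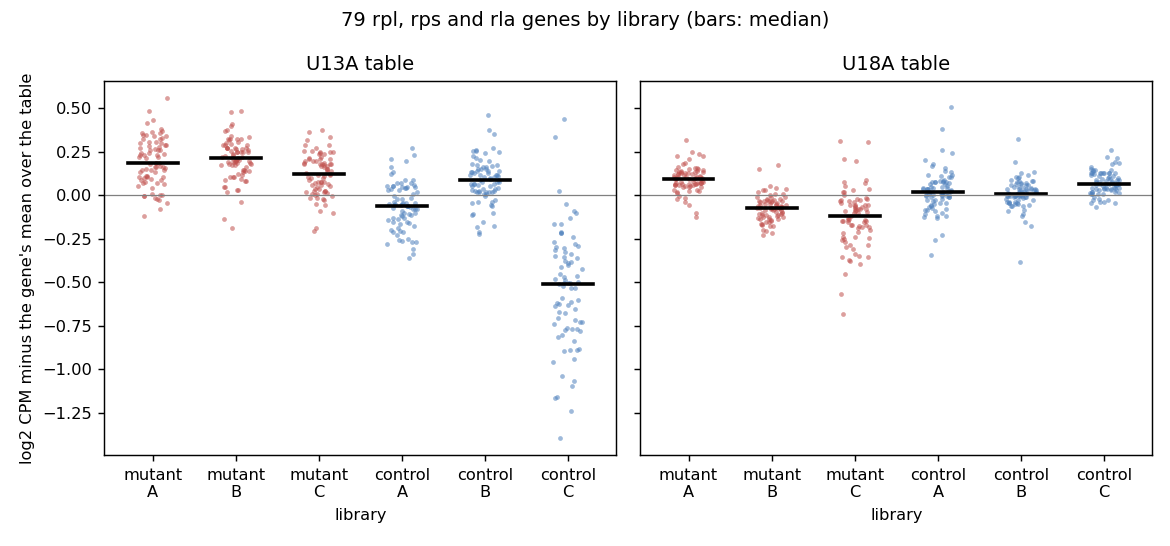
Each point is 1 of the 79 rpl, rps and rla genes, plotted as its log2 CPM in a library minus its mean over the 6 libraries of that table (vertical axis), with libraries on the horizontal axis and bars at the median. The U13A mutant medians sit above all 3 controls, control C has the lowest median and the widest scatter, and U18A mutant A sits above mutants B and C.

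The spread between replicates followed the same libraries. The median coefficient of variation of a ribosomal gene was 7.27% in the U13A mutants and 22.7% in the U13A controls, which became 7.98% with controls A and B alone. It was 9.77% in the U18A mutants and 4.27% in the U18A controls.

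The levels per length spanned a wide range. In the U18A table the 78 ribosomal genes with a known exon length had a median of 664 CPM per kilobase of exon over the 6 libraries, with quartiles at 374 and 1326. The small subunit genes had a median of 890 CPM per kilobase (n = 31), the large subunit genes 516 (n = 44) and the stalk genes 1530 (n = 3). In the U13A table the order of the classes was the same, with medians of 241, 125 and 537 CPM per kilobase, and the ranks of single genes were close to those in the U18A table (Spearman rho 0.988 across 78 genes, which share the annotation, the counting and the base composition of each gene).

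At the top stood rps-9, a small subunit protein at the entry path of the messenger RNA. It reached 5335, 4973 and 3897 CPM per kilobase in U18A mutants A, B and C, against 4919, 4873 and 5141 in the controls. Next came rpl-4, which lines the exit tunnel for the new peptide, and rla-1, an acidic stalk protein, with means of 2939 and 2935 CPM per kilobase over the 6 libraries. Those 2 genes did not differ beyond their spread, which was 2258 to 3225 for rpl-4 and 2451 to 3193 for rla-1. No library of either gene reached the lowest value of rps-9.

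At the bottom of the ribosomal symbols stood rpl-42, with 11.18, 10.1 and 6.05 CPM per kilobase in U18A mutants A, B and C, against 10.7, 6.87 and 10.2 in the controls. Its groups overlapped, and its raw counts were only 32 to 70 per library. Above it came rpl-24.2, at a mean of 20.6 CPM per kilobase, and rpl-37, at 29.7. RefSeq (assembly WBcel235) lists rpl-24.2 as rsl-24D1, a family of factors that take part in assembling the large subunit, and it lists the rpl-37 gene model as rpl-37.2. That model is a single exon of 276 bases lying over another coding gene, pitp-1. Its reads cannot be told from those of pitp-1 without a strand setting, which is not given in the sources used here. Of the 78 genes, 15 have a model that overlaps another coding gene, among them rla-1, rpl-7, rpl-22 and rpl-24.2. The same uncertainty can apply to their reads. The highest level was 528 times the lowest among the 78 genes.

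**Figure D2:**
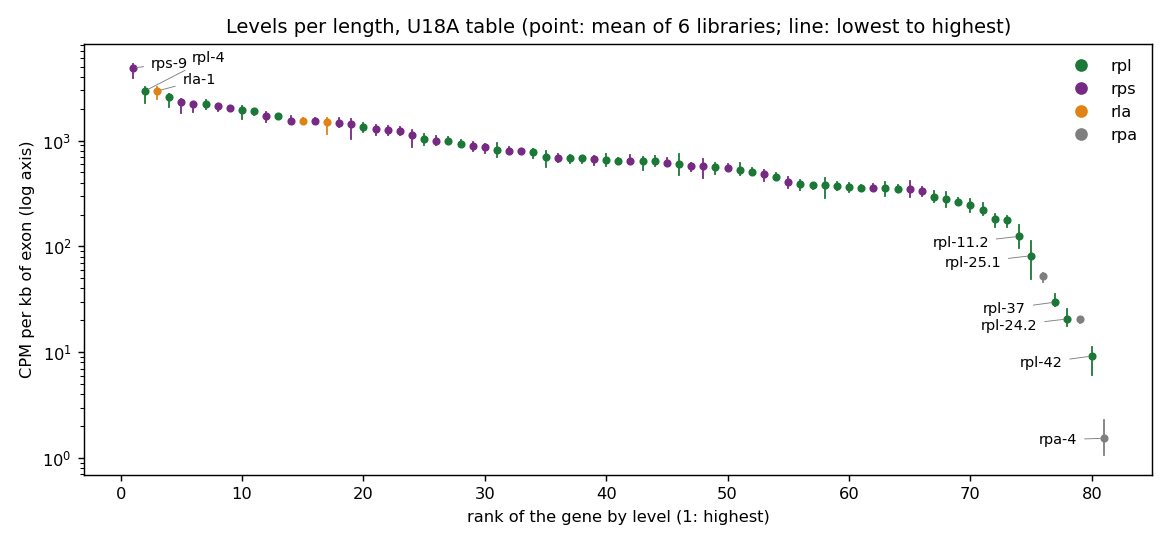
Genes are ranked by level on the horizontal axis, and the vertical log axis gives CPM per kilobase of exon in the U18A table, as the mean of 6 libraries with a line from the lowest to the highest library. Most ribosomal genes lie between about rps-9 at 4856 and rpl-11.2 at 124 CPM per kilobase, and a short tail ends with rpl-42 at 9.19 and rpa-4 at 1.54.

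The gene models shared features that the symbol rule did not use. In the Ensembl release 115 annotation of WBcel235, the 78 placed ribosomal genes had a median exonic length of 538 bases and a median coding length of 450 bases, against 1166 and 990 over 19754 protein-coding genes. Of these 78 genes, 23 lay on chromosome I, 9 on II, 18 on III, 18 on IV, 8 on V and 2 on X. Chromosome X held 2.56% of the ribosomal genes and 13.8% of all protein-coding genes, and its 2 were rpl-11.2 and rpl-25.1.

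Small nucleolar RNA genes, whose products guide chemical changes in ribosomal RNA, lay inside many of them. In 13 of the 78 (16.7%) the annotation places 1 or more such genes on the same strand, 19 in all, with 3 in rpl-6. The share over all protein-coding genes was 0.80%, which is 158 of 19754. The host genes' log2 fold changes had medians close to those of the rest, at 0.31 in hosts and 0.32 in the other 65 in the U13A contrast. Without control C the medians were 0.16 in hosts and 0.14 in the others, and in the U18A contrast they were -0.09 and -0.06.

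The first comparison asked how these genes differed between the U13A mutant and its control. By edgeR's quasi-likelihood test with Benjamini-Hochberg adjustment over 12044 genes, 0 of 82 members passed an adjusted p of 0.05, where 1.55% of all genes did. At an unadjusted p under 0.05, 16 members were higher and 0 were lower, against 12.6% of all genes in either direction. The mutant libraries lay entirely above the controls for 28 of 82 members and entirely below for 0, where 9.8% and 9.26% of all genes did so. DESeq2 also called 0 members. Without control C, 0 of 82 passed where 2.81% of all genes did, 14 were higher and 0 lower at an unadjusted p under 0.05 (13.4% of all genes in either direction), and 29 lay entirely above (13.8% of all genes).

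Both subunits showed a similar shift. The median log2 fold change in the U13A contrast was 0.34 over the 31 small subunit genes, 0.31 over the 45 large subunit genes and 0.23 over the 3 stalk genes. Without control C these medians were 0.15, 0.14 and 0.19. All 31 small subunit genes were above 0 in both fits. Other short protein-coding genes, with under 1000 bases of exon, had a median of 0.05 with all libraries and 0.04 without control C. The 3 tested rpa genes had a median of 0.03 and, without control C, of -0.02.

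Leaving out control C lowered the members' median log2 fold change from 0.32 to 0.14. The ribosomal genes' level in control C was lower than the mean of controls A and B by a median log2 difference of -0.55. What share of the U13A shift belongs to the genotype and what share to library makeup was not tested.

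The clearest single value in the U13A contrast belonged to rpl-43, a large subunit gene that RefSeq lists as rpl-37A (chromosome II, bases 14155294 to 14155569 of WBcel235, a model of 1 exon and 276 bases). It was measured at 77.1, 77.2 and 73.8 CPM in U13A mutants A, B and C, against 63.1, 56.4 and 51.3 CPM in the controls. All 3 mutants lay above all 3 controls, and control C did not stand apart for this gene. Its log2 fold change came to 0.42 (SE 0.13, adjusted p 0.168) with all libraries and 0.35 (SE 0.11, adjusted p 0.0849) without control C, the smallest adjusted p among the members in each fit.

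The abundant rps-9 had 1026, 1046 and 987 CPM in the U13A mutants, against 927, 884 and 512 CPM in the controls, with no overlap (log2 fold change 0.40, SE 0.23, adjusted p 0.528). Without control C its log2 fold change was 0.17, so for rps-9 most of the difference came with that library. For rpl-4 the U13A mutants gave 834, 1015 and 997 CPM and the controls 924, 778 and 760 CPM, and the groups overlapped (log2 fold change 0.21, SE 0.19, and 0.155, SE 0.14, without control C).

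rps-2, a small subunit protein near the messenger RNA entry, had 143, 177 and 165 CPM in the U13A mutants, against 130, 140 and 117 CPM in the controls. The groups did not overlap, and the effect on the log2 scale was 0.33 (SE 0.15, adjusted p 0.387), or 0.26 without control C. At the other end, rpl-42 had the lowest log2 fold change of all members, -0.26 (SE 0.21, adjusted p 0.654), or -0.18 without control C, from 2.56, 2.29 and 2.27 CPM in the mutants and 3.16, 2.302 and 3.30 CPM in the controls. The groups overlapped through control B, at raw counts of 35 to 67.

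**Figure D3:**
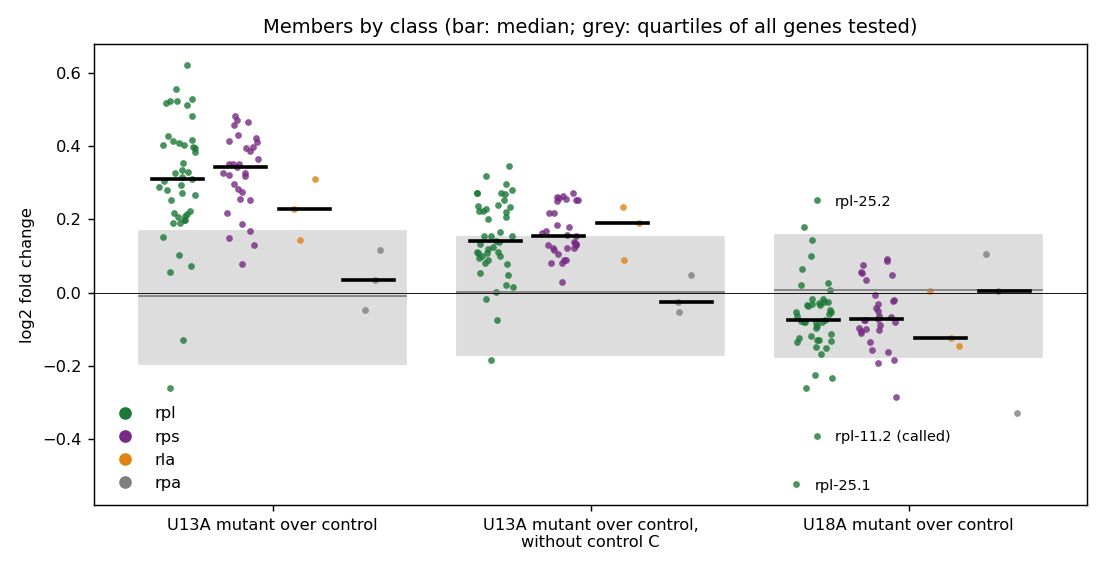
Each point is a member's log2 fold change, mutant over control (vertical axis), in the U13A contrast, the same without control C, and the U18A contrast (horizontal axis), by symbol class, with black bars at class medians and grey bands for the quartiles of all genes tested. The rpl and rps medians lie at 0.31 and 0.34 in the U13A contrast, 0.14 and 0.15 without control C, and -0.07 and -0.07 in the U18A contrast, where rpl-11.2 is the single member past the threshold.

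The second comparison asked the same of the U18A mutant and its control. Here 1 of 82 members passed the adjusted threshold, rpl-11.2, which fell, where 8.16% of 12689 genes tested did. At an unadjusted p under 0.05, 1 member was higher (rpl-25.2) and 5 were lower, against 21.5% of all genes in either direction. The mutant libraries lay entirely below the controls for 7 members and entirely above for 2, where 14.8% and 12.3% of all genes did so, so the counts of single members were under the background. Medians were -0.07 for both the small and the large subunit genes and -0.13 for the 3 stalk genes, and 0.03 for other short coding genes.

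rpl-11.2 encodes a large subunit protein that joins the smallest ribosomal RNA, and it has a partner gene, rpl-11.1. It lies on chromosome X (bases 2241738 to 2242618, WBcel235, 4 exons), whereas rpl-11.1 lies on chromosome V. rpl-11.2 had 83.7, 82.5 and 70.1 CPM in U18A mutants A, B and C, against 117, 96.7 and 95.8 CPM in the controls, from raw counts of 485 to 673 and 623 to 909. No mutant library reached a control, and the fitted log2 fold change of -0.39 had an SE of 0.10 and an adjusted p of 0.0167.

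The call rested on U18A control A, the highest library for rpl-11.2. Without it the log2 fold change was -0.29 and the adjusted p 0.129, and in a fit over all 12 libraries the adjusted p was 0.347. In the U13A table the order was the other way, with 31.5, 28.0 and 32.1 CPM in the mutants against 27.7, 22.9 and 12.7 CPM in the controls. Those groups did not overlap either, and the effect was 0.51 on the log2 scale (SE 0.22, adjusted p 0.384), or 0.27 (SE 0.11, adjusted p 0.26) without control C.

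Its partner rpl-11.1 stayed within the spread in both tables. It had 248, 213 and 218 CPM in the U18A mutants, against 219, 231 and 251 CPM in the controls (log2 fold change -0.05, SE 0.09). Among the U13A libraries it had 61.3, 55.3 and 54.1 CPM in the mutants, against 54.4, 59.2 and 45.0 CPM in the controls (log2 fold change 0.10, SE 0.14). Without control C the U13A value of rpl-11.1 was 0.00 (SE 0.10). The groups overlapped in both tables. Reads that match both copies could have been split or dropped by the counting, so values within such pairs are uncertain.

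The raw ratio of rpl-11.2 to rpl-11.1 within a library, which no scaling factor touches, was 33.7%, 38.7% and 32.2% in U18A mutants A, B and C, against 53.3%, 41.8% and 38.2% in the controls. The groups overlapped through mutant B and control C, and a two-sided exact permutation test gave p = 0.2. In the U13A table the ratio was 51.4%, 50.6% and 59.3% in the mutants, against 50.9%, 38.8% and 28.3% in the controls, again overlapping (exact permutation p = 0.2, or 0.4 without control C). With 3 libraries against 3 the smallest p this test allows is 0.1, and 6 such ratios were compared, giving an adjusted p of 0.3 for each.

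The other gene on chromosome X, rpl-25.1, belongs to the proteins that surround the mouth of the peptide exit tunnel, as does its partner rpl-25.2 on chromosome I. rpl-25.1 had 37.5, 37.8 and 24.3 CPM in the U18A mutants, against 55.5, 48.9 and 37.8 CPM in the controls. The groups touched but did not overlap (37.77 CPM in mutant B, 37.82 CPM in control C), and the effect of -0.52 on the log2 scale (SE 0.19, adjusted p 0.156) was the lowest among the members without passing. It passed without control C of the U18A table (-0.68, adjusted p 0.0185). For the U13A strains rpl-25.1 had 12.2, 15.5 and 15.0 CPM in the mutants and 12.6, 12.9 and 11.8 CPM in the controls, which overlapped, at log2 fold changes of 0.19 (SE 0.13) and, without control C, 0.15 (SE 0.12).

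rpl-25.2 had the highest log2 fold change among the members in the U18A contrast, 0.25 (SE 0.11, adjusted p 0.18), from 310, 296 and 366 CPM in the mutants and 232, 271 and 312 CPM in the controls. The groups overlapped. In the U13A table it was also the member with the highest value, 0.62 (SE 0.39, adjusted p 0.587), from 57.4, 59.6 and 52.0 CPM in the mutants and 37.3, 55.1 and 16.1 CPM in the controls. Control C lay far below the rest here, and without it the value was 0.28 (SE 0.14, adjusted p 0.394).

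The ratio of rpl-25.1 to rpl-25.2 was 12.1%, 12.8% and 6.63% in the U18A mutants, against 23.9%, 18.0% and 12.1% in the controls (exact permutation p = 0.3). Mutants A (12.13%) and B (12.78%) both lay just above control C (12.11%). For the U13A strains it averaged 25.3% ± 3.80 in the mutants and 43.4% ± 26.3 in the controls (SD, n = 3 each, exact permutation p = 0.3), where control C alone stood at 73.1%. Without control C the controls averaged 28.5% ± 7.32 (SD, n = 2, exact permutation p = 0.6).

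rpl-24.1, a protein at the joint between the subunits, and rpl-24.2, the related assembly factor, made the third pair. The ratio of rpl-24.2 to rpl-24.1 was 9.33%, 9.05% and 11.3% in the U18A mutants, against 8.68%, 7.62% and 8.25% in the controls. All mutants lay above all controls, and the exact permutation p of 0.1 was the smallest possible. Without U18A mutant C the log2 fold change of rpl-24.2 itself was -0.01, against 0.14 with it. In the U13A table the ratio averaged 7.84% ± 0.820 in the mutants and 12.5% ± 5.26 in the controls (SD, n = 3 each, exact permutation p = 0.2), and control C was the highest at 18.5%. Without control C the controls averaged 9.47% ± 1.27 (SD, n = 2, exact permutation p = 0.4).

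**Figure D4:**
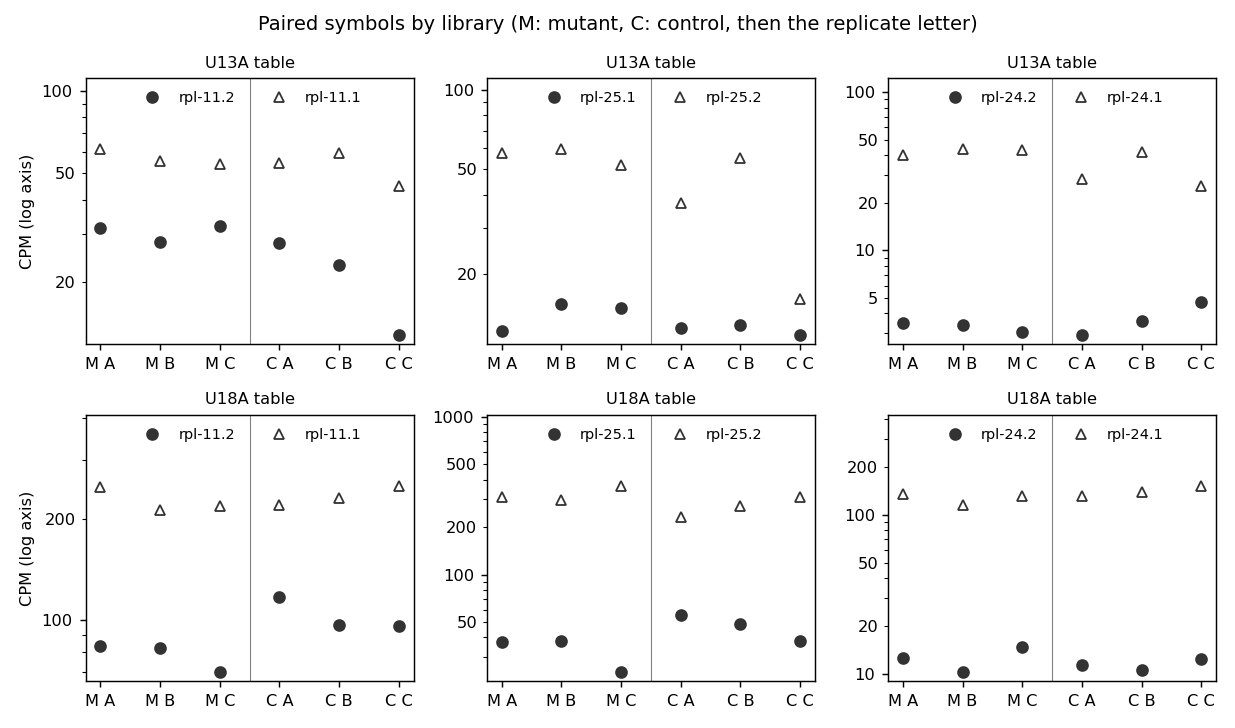
Levels in CPM (vertical log axis) of the 3 suffix pairs in each library (horizontal axis), mutants left of controls, with the U13A table above and the U18A table below. Filled circles show rpl-11.2, rpl-25.1 and rpl-24.2, and open triangles their partners; rpl-11.2 is lower in all 3 U18A mutants than in the controls, and rpl-25.2 is at its lowest in U13A control C.

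rpl-7 and rpl-7A share a number but are unrelated large subunit proteins. Among the U13A libraries rpl-7 had 215, 208 and 222 CPM in the mutants, against 186, 200 and 156 CPM in the controls, and rpl-7A had 43.2, 42.8 and 45.0 CPM in the mutants, against 38.5, 42.5 and 36.9 CPM in the controls. Neither gene's groups overlapped there, with log2 fold changes of 0.25 (SE 0.15) and 0.15 (SE 0.12) that did not pass, or 0.15 (SE 0.11) and 0.11 (SE 0.10) without control C. In the U18A contrast both overlapped, at -0.08 (SE 0.09) and -0.13 (SE 0.09).

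The stalk proteins recruit the factors that drive elongation. rla-1 had 333, 406 and 354 CPM in the U13A mutants, against 297, 322 and 313 CPM in the controls, with no overlap (log2 fold change 0.23, SE 0.16, adjusted p 0.609, and 0.23 without control C). rla-2 overlapped with all libraries (241, 277 and 244 CPM in the mutants, 221, 224 and 246 CPM in the controls), and rla-0 overlapped too (463, 480 and 409 CPM in the mutants, 410, 436 and 244 CPM in the controls). Control C was low for rla-0 and was the highest control for rla-2. Without it rla-2 did not overlap, and its log2 fold change was 0.19 (SE 0.12) in place of 0.14 (SE 0.15). For rla-0 the value was 0.09 (SE 0.12) without control C in place of 0.31 (SE 0.21), and the groups still overlapped.

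In the U18A contrast the stalk genes all overlapped. rla-0 had 1698, 1507 and 1542 CPM in the mutants, against 1582, 1563 and 1589 CPM in the controls, a log2 fold change of 0.00 (SE 0.10). rla-1 and rla-2 were at -0.15 (SE 0.11) and -0.13 (SE 0.11), and in both genes the lowest library was mutant C, at 1081 and 524 CPM.

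The rpa genes were among the lowest members per length, with 20.4 CPM per kilobase for rpa-1 and 1.54 for rpa-4 in the U18A table. rpa-1 and rpa-2 are subunits of replication protein A, and in the U18A table rpa-1 had 45.6, 45.6 and 45.5 CPM in the mutants, against 42.7, 44.1 and 40.5 CPM in the controls. The groups did not overlap, and its effect on the log2 scale was 0.11 (SE 0.09, adjusted p 0.542). Among the U13A libraries rpa-1 overlapped, at -0.05 (SE 0.13), or -0.02 without control C.

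rpa-2 overlapped in both tables, with log2 fold changes of 0.03 (SE 0.13) in the U13A contrast, 0.05 (SE 0.12) without control C and 0.00 (SE 0.10) in the U18A contrast. rpa-4 was near the detection limit, with raw counts of 6 to 17 in the U13A mutants, 3 to 19 in the U13A controls, 11 to 25 in the U18A mutants and 16 to 27 in the U18A controls. rpa-3 was left out of the tests, with raw counts of 0 in all 3 U13A mutants, 0, 0 and 3 in the U13A controls, 1, 4 and 3 in the U18A mutants and 3 in each U18A control.

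The third comparison tested whether a gene's mutant effect differed between the tables, in 1 fit over 12 libraries. In this test 1 of 82 members passed, rpl-43, where 1.96% of 14155 genes tested did, and 24 were higher and 0 lower at an unadjusted p under 0.05 (12.2% of all genes in either direction). The difference, U13A effect minus U18A effect, was above 0 for 79 of 82 members and for 51.4% of all genes, with medians of 0.38 and 0.01. Without U13A control C, 3 of 82 passed, rpl-43, rpl-11.2 and rps-2, where 2.46% of all genes did, and the difference was above 0 for 78 of 82 members and for 51.9% of all genes, with medians of 0.23 and 0.02 (log2).

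rpl-43 was higher in the U13A mutants, as given above, and lower in the U18A mutants, which had 189, 188 and 156 CPM against 221, 202 and 202 CPM in the controls. These U18A groups did not overlap, and their effect was -0.23 on the log2 scale (SE 0.09, adjusted p 0.119). The difference between the contrasts was 0.67 (SE 0.16, adjusted p 0.0237), and 0.60 (SE 0.13, adjusted p 0.00919) without U13A control C. The call was lost without any of 8 single libraries, with adjusted p between 0.0517 and 0.121.

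rps-2 had 567, 537 and 445 CPM in the U18A mutants, against 577, 649 and 662 CPM in the controls, with no overlap (log2 fold change -0.29, SE 0.10, adjusted p 0.0938). Its difference between contrasts was 0.64 (SE 0.18, adjusted p 0.0812), and 0.57 (SE 0.15, adjusted p 0.0383) without U13A control C. For rpl-11.2 the difference was 0.92 (SE 0.28, adjusted p 0.148), and 0.68 (SE 0.15, adjusted p 0.00885) without that control. For these 3 genes the mutants lay on opposite sides of their controls in the 2 tables.

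The same opposite arrangement, with no overlap in either table, held for 5 members, which were rpl-11.2, rpl-22, rpl-43, rps-2 and rps-19. Of 11888 genes tested in both contrasts, 1.61% were arranged in this way. Without U13A control C the same 5 members were so arranged, and 2.04% of all genes. The symbols rpl-22 and rps-19 were picked out after their values were seen. rps-19, a small subunit protein, had 53.0, 45.1 and 52.0 CPM in the U13A mutants against 40.3, 43.2 and 34.0 CPM in the controls, and 166, 151 and 159 CPM in the U18A mutants against 181, 168 and 183 CPM in the controls. rps-17, also picked out after its values were seen, was the single member above its controls without overlap in both tables, at log2 fold changes of 0.48 in the U13A contrast, 0.25 without control C and 0.09 in the U18A contrast. Of all genes tested in both, 1.49% were so, or 2.03% without U13A control C. By sign alone, 63 of 82 members were above 0 in the U13A contrast and below 0 in the U18A contrast, against 20.8% of all genes, and without U13A control C 60 of 82 were, against 21.9% of all genes.

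Across 78 ribosomal genes, the Spearman rho between log2 fold change and exonic length was -0.19 in the U13A contrast, -0.33 without control C and -0.11 in the U18A contrast, and these genes share the same libraries.

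Among other components of translation, those that sit on the ribosome itself lay above 0 in the U13A contrast, but other lists did so too. Without control C the U13A medians were 0.17 for these components, 0.18 for elongation and termination factors and 0.13 for nascent chain and messenger RNA binding. They were 0.11 for mitochondrial ribosomal proteins and 0.10 for initiation factors, beside 0.15 for the ribosomal genes. The ribosome components outside the symbol rule were ubl-1 and ubq-2, which encode ribosomal proteins fused to a ubiquitin-like or ubiquitin domain, and rack-1, a scaffold on the small subunit. All 3 were above 0 in the U13A contrast, at log2 fold changes of 0.36, 0.30 and 0.28, and without control C at 0.17, 0.17 and 0.09. In the U18A contrast they stood at -0.01, -0.02 and -0.12. None of these 3 genes passed the test in any of these fits.

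The 11 elongation and termination factors in the tables were all above 0 in the U13A contrast, with a median log2 fold change of 0.27, or 0.18 without control C, against 0.00 in the U18A contrast. With all libraries 0 of 11 passed. Without control C eef-1A.2, a form of the factor that brings charged transfer RNA to the ribosome, was higher in the U13A mutant. It had 66.8, 74.1 and 66.0 CPM in the U13A mutants, against 41.9, 52.3 and 26.6 CPM in the controls, which is 0.55 on the log2 scale (SE 0.11, adjusted p 0.00689) without control C and 0.77 (SE 0.20, adjusted p 0.101) with it. In the U18A table it had 252, 235.1 and 215 CPM in the mutants, against 307, 272 and 274 CPM in the controls (log2 fold change -0.28, adjusted p 0.0512). Neither pair of groups overlapped, and the difference between contrasts was 1.07 (SE 0.23, adjusted p 0.0183).

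Its partner eef-1A.1 was the more abundant, with 632, 651 and 568 CPM in the U13A mutants, against 551, 587 and 399 CPM in the controls. Its groups overlapped, and its log2 fold change was 0.27 (SE 0.19), or 0.11 without control C, and 0.00 in the U18A contrast.

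Of 20 initiation factors, 0 passed in the U13A contrast (median log2 fold change 0.08, or 0.10 without control C). Without control C ife-2, a protein that binds the messenger RNA cap, was higher in the U13A mutants, with 6.41, 6.19 and 7.17 CPM against 4.06, 4.603 and 3.77 CPM in the controls. The groups did not overlap, and the change was 0.60 on the log2 scale (SE 0.16, adjusted p 0.0365) without control C and 0.65 (SE 0.15, adjusted p 0.0596) with it. In the U18A table ife-2 had 16.3, 19.7 and 16.0 CPM in the mutants, against 24.18, 19.6 and 21.3 CPM in the controls, which overlapped. The difference between contrasts was 1.00 (SE 0.20, adjusted p 0.00584).

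In the U18A contrast the initiation factors had a median log2 fold change of 0.09 and 1 gene passed, eif-3.G, a subunit of the large initiation factor that binds the small subunit. It was higher in the U18A mutants, with 42.6, 47.8 and 53.5 CPM against 30.6, 38.2 and 39.5 CPM in the controls (log2 fold change 0.41, SE 0.11, adjusted p 0.0294). Of 33 transfer RNA synthetases, kars-1, the lysine enzyme, was higher in the U18A mutants, with 177, 174 and 198 CPM against 144, 143 and 153 CPM in the controls (log2 fold change 0.32, SE 0.08, adjusted p 0.0186), and no other synthetase passed in either contrast. The synthetases had medians of 0.09 in the U13A contrast, 0.06 without control C and 0.07 in the U18A contrast.

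Genes that build ribosomes lay nearer to 0 than the genes that make them up. The 18 ribosome biogenesis and RNA polymerase I genes had medians of -0.08 in the U13A contrast, -0.03 without control C and 0.04 in the U18A contrast, and 0 passed in each. The 9 genes of TOR and S6 kinase signalling had medians of 0.05, 0.04 and 0.12, and the 6 genes of nascent chain and messenger RNA binding had medians of 0.19, 0.13 and 0.01, with 0 passing in each. The 65 mitochondrial ribosomal protein genes, whose products make the separate ribosome of the mitochondrion, had medians of 0.15, 0.11 and 0.02, with 53, 55 and 37 genes above 0 and 0 passing in each. None of these differences between lists was tested.

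**Figure D5:**
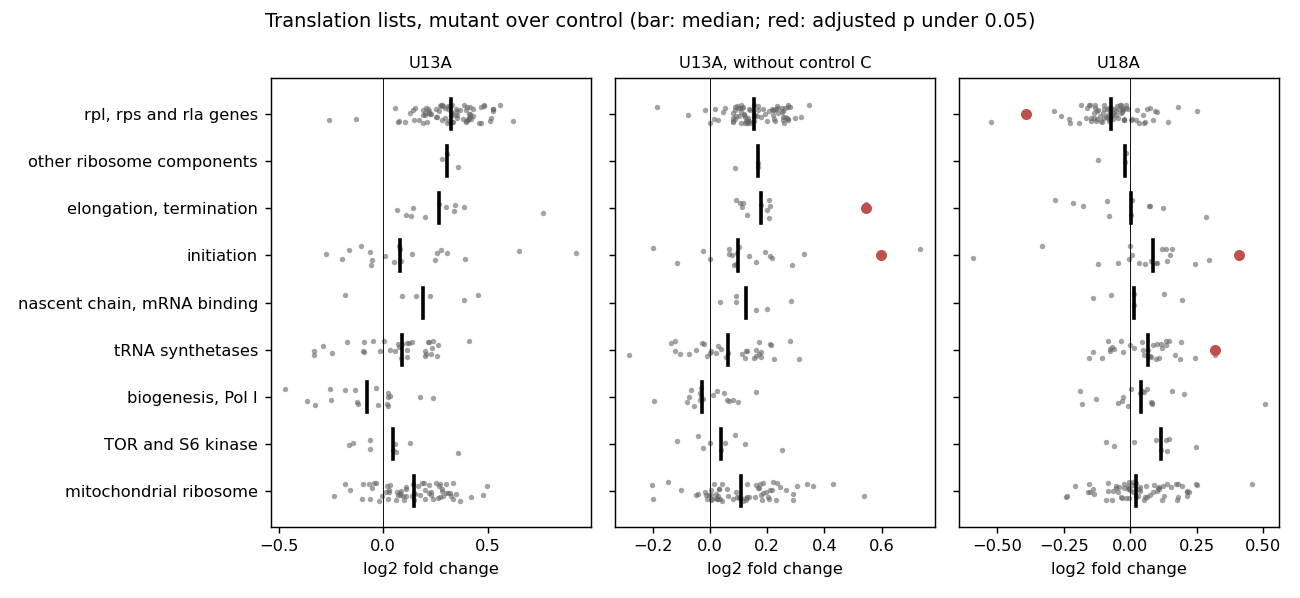
Rows are gene lists, points are genes, and the horizontal axis is the log2 fold change, mutant over control, in the U13A contrast, the same without control C, and the U18A contrast; black bars mark list medians and red points genes with an adjusted p under 0.05. The ribosomal genes, the other ribosome components and the elongation factors have U13A medians between 0.27 and 0.32, biogenesis genes lie at -0.08, and all list medians in the U18A panel lie between -0.07 and 0.12.

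Markers of the main tissues were measured beside these values. Germline markers (10 of 10 tested) summed to 665 to 715 CPM in the U13A mutants and 634 to 676 CPM in the controls, and to 2811 to 2988 CPM in the U18A mutants and 2534 to 2678 CPM in the controls. The largest part of the U18A sums was cgh-1, at 1339, 1270 and 1342 CPM in mutants A, B and C, against 998, 1101 and 1136 in the controls. Over the 10 germline markers the median log2 fold change in the U18A contrast was 0.05, with 7 above 0. Intestinal markers (7 of 8 tested) summed to 975 to 1030 CPM in the U13A mutants and 675 to 1019 CPM in the controls, and to 3353 to 4061 CPM in the U18A mutants and 3493 to 3554 CPM in the controls. Body wall muscle markers (7 of 7 tested) summed to 1665 to 1686 CPM in the U13A mutants and 1196 to 1650 CPM in the controls, and to 5961 to 6401 CPM in the U18A mutants and 5982 to 6834 CPM in the controls.

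Neuronal markers (8 of 8 tested) summed to 36.9 to 38.8 CPM in the U13A mutants and 36.8 to 40.4 CPM in the controls, and to 127 to 136 CPM in the U18A mutants and 125 to 136 CPM in the controls. Hypodermal markers (7 of 7 tested) summed to 30.8 to 34.6 CPM in the U13A mutants and 30.4 to 35.3 CPM in the controls, and to 119 to 143 CPM in the U18A mutants and 140 to 165 CPM in the controls. In the U18A contrast 2 hypodermal markers fell, the cuticle collagen dpy-7 (log2 fold change -1.89, adjusted p 0.0169) and che-14 (-0.76, adjusted p 0.00186). None of the other markers passed in either contrast, and no marker was at 0 in all libraries. Control C gave the lowest U13A control sum for the germline, intestinal, muscle and hypodermal lists. Single markers did not all follow these sums. The abundant cgh-1 (germline) and unc-54 (muscle) were lower in control C than in controls A and B. In contrast, glh-1 and him-3 (germline) and mup-2 and tni-1 (muscle) were higher there. For glh-1 control C had 152.9 CPM, against 108.9 and 98.09 CPM in controls A and B. For cgh-1 it had 200.5 CPM, against 264.5 and 282.3 CPM. The part of these markers in the shifts of the ribosomal genes was not tested.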

How the data were processed

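The RNA was total RNA after rRNA depletion, prepared with NEBNext Ultra II reagents for a NextSeq 500, per the labels' protocols. The authors deposited raw read counts per gene in 2 tables, per the file headers. The submitters' processing notes list cutadapt 1.9, Bowtie2 2.3.4.3, featureCounts and Subread 1.6.2; the genome build, annotation and strand setting are not given in the sources used here. No sample column was left unused.

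Counts were fitted in R 4.3.3 with edgeR 4.0.16 (TMM scaling, filterByExpr at 10 counts per library and 15 in total, glmQLFit with robust estimation, glmQLFTest, group as the only term), each table on its own, with p-values adjusted over all genes tested and a threshold of 0.05. The difference between contrasts used all 12 libraries in 1 fit. The fits were tested on simulated counts. CPM used TMM-scaled library sizes. Exonic length (union of exons), position and snoRNA overlap came from Ensembl release 115 (WBcel235), which matched 81 of 83 symbols (rpl-41 and rpa-3 did not match); RefSeq names came from the RefSeq gene table. Ratios of paired genes used an exact permutation test in scipy 1.17.1.

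The members, the other translation lists and the tissue markers were chosen with earlier results of these data known, so counts and medians over a list are given beside the same over all genes, with no test of the list. Named are members past the threshold, genes sharing letters and number, the stalk and rpa genes, the 3 highest and 3 lowest per length, members past the threshold in the difference, and list genes that passed. Alternatives were RLE factors, TMM without the members, protein-coding genes only, the 10 most abundant entries removed, no count filter, a minimum mean count of 10, replicate letters as a block, the Wald test of DESeq2 1.42.0, each library left out, all 12 libraries in 1 fit and an adjusted p under 0.01. The biological coefficient of variation was 14.4% in the U13A table, 9.52% without control C and 9.03% in the U18A table.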

Additional observations from a re-analysis of the deposited data

Results flagged for a closer look

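These genes had a mutant effect that differed between the U13A and U18A tables, by the adjusted p of the difference itself in edgeR (U13A effect minus U18A effect, log2). With all 12 libraries the difference was 1.07 for eef-1A.2, 1.00 for ife-2 and 0.67 for rpl-43. Without U13A control C it was 0.85 for eef-1A.2, 0.95 for ife-2, 0.60 for rpl-43, 0.68 for rpl-11.2 and 0.57 for rps-2. In each of these the U13A value was above 0 and the U18A value below 0. The 2 tables differ in strain background and in the share of counts taken by the 3 entries most abundant in the U13A table. Genotype and table therefore cannot be told apart in this comparison.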

How the results depend on the processing

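The medians of the 82 members kept their sign under every alternative run. They ran from 0.14 (without control C) to 0.43 (without control B) in the U13A contrast and from -0.14 to -0.02 in the U18A contrast. RLE factors, TMM without the members, protein-coding genes only, removal of the 10 most abundant entries and a minimum mean count of 10 gave the same counts of called members as in the report. Without a count filter 6 members passed in the U13A contrast, 4 in the U18A contrast and 7 in the difference. Same-letter correlations were -0.04 to 0.12 for the U13A strains, where different letters gave -0.20 to 0.24. For the U18A strains they were -0.01 to 0.13, where different letters gave -0.12 to 0.06. With so few pairs these values cannot decide whether the replicate letters pair the libraries. With the replicate block 1, 3 and 4 members passed in the U13A contrast, the U18A contrast and the difference. The fit over all 12 libraries gave 1 member in the U13A contrast (rpl-43) and 0 in the U18A contrast. DESeq2 gave 2 in the difference. At an adjusted p under 0.01, 0 passed in the U18A contrast and 0 in the difference, where 2 did without U13A control C (rpl-11.2 and rpl-43). Leaving out 1 library gave 0 to 4 members in the U13A contrast (4 without control B), 0 to 3 in the U18A contrast (0 without control A, 2 without control C, 3 without mutant A) and 0 to 10 in the difference (10 without U13A control B). The cause was not tested. No called value changed sign, but of 57 values of named genes 11 that had not passed changed sign under 1 or more alternatives, and without U13A control C 4 of 82 members did (rpa-4, rpl-20, rpl-24.2 and rpl-37). Low counts limit rpa-3, rpa-4, rpl-37 and rpl-42.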

Other observations

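The 2 ribosomal genes on chromosome X, rpl-11.2 and rpl-25.1, had the 2 lowest log2 fold changes of the members in the U18A contrast, and eef-1A.2 and ife-2, which differed between the contrasts, also lie on chromosome X. This was seen after the values. The other members whose effects differed between the contrasts, rpl-43 and (without U13A control C) rps-2, lie on chromosomes II and IV. Over the protein-coding genes tested on chromosome X the median log2 fold change was 0.02 in the U13A contrast (n = 1299), 0.03 without control C (n = 1371) and -0.02 in the U18A contrast (n = 1418). For the difference between contrasts the median was 0.07 on chromosome X (n = 1604) and between 0.00 and 0.03 on the 5 autosomes. At an adjusted p under 0.05 in the U18A contrast, 130 genes on chromosome X were lower and 42 higher. Each autosome, with 1781 to 1954 genes tested, had 84 to 124 lower and 29 to 63 higher. In the difference, chromosome X had 43 genes above 0 and 6 below past the same threshold. Each autosome, with 1902 to 2255 tested, had 24 to 41 above and 3 to 12 below. Whether chromosome X departs from the autosomes was not tested.

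rpl-41, which matched no gene of the annotation, had 9.72, 9.23 and 7.01 CPM in the U13A mutants, against 5.99, 9.59 and 3.11 CPM in the controls, and 32.9, 27.9 and 34.2 CPM in the U18A mutants, against 24.8, 26.5 and 32.3 CPM in the controls. Its groups overlapped in both tables.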
